A study of Mus musculus with 2 samples.

Results

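The Hippo effectors and target genes described here are 10 mouse genes, found by their symbols among the 23562 gene symbols of 1 deposited table. They are the coactivator genes Yap1 and Wwtr1, the transcription factor genes Tead1, Tead2, Tead3 and Tead4, and the target genes Ctgf, Cyr61, Ankrd1 and Amotl2. RNA was sequenced from mammary tumour cells of the line AS0574 in 2 forms. The labels give both forms as Rnf8-/-;Trp53Δ/Δ, and the second form had Rnf8 put back (the Rnf8-complemented cells). The Trp53Δ/Δ genotype was thus shared by both, by label. Each form had 1 library (below, the null library and the complemented library), so differences could not be set against replicate error and no p-value is given. Neither form came from cells in which the native Rnf8 gene was intact, and the sources used here do not give how Rnf8 was put back or whether each form was 1 clone.

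The Hippo pathway is a kinase cascade that restrains tissue growth. Its kinases Mst1 and Mst2 (genes Stk4 and Stk3) activate Lats1 and Lats2, which phosphorylate the coactivators Yap and Taz and hold them in the cytoplasm. Unphosphorylated Yap and Taz enter the nucleus and bind the Tead factors, which recognise the DNA motif GGAATG and through which Ctgf, Cyr61, Ankrd1 and Amotl2 are transcribed. In the mammary gland, Taz and Yap are best known for their part in basal and stem-like cell states and in breast tumours. Because the pathway acts largely through phosphorylation and location of its proteins, the RNA levels of its own components do not show its activity. RNA of target genes is used as an indirect readout, and activity itself was not measured here. Taz is encoded by Wwtr1. The table also has a row with the symbol Taz, which names another gene (tafazzin) and was not used.

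The Tead motif is shown first, because it links the factors to the target genes. RefSeq promoter windows on GRCm38.p6 were found for 7 of the 10 genes (10 windows, since Wwtr1 and Tead3 have several starts), and Ctgf, Tead1 and Tead4 were not matched. The motif GGAATG was searched on both strands in the 250 bases before each start, so that CATTCC on the gene's strand also counts. It was present in 8 of the 10 windows, against 12.6% of 32851 windows of all mouse genes and 10.7% of 11455 windows of tested genes. By gene it was present for 6 of the 7, a count for which no share over all genes was computed. Tead2 had no match in its window. The 2 windows of Wwtr1 overlap each other, as do 2 of the 3 windows of Tead3, so the windows are not independent. The sites of 5 genes are shown as 30 bases on the gene's strand, with the motif in capitals.
Cyr61, chr3:145650071-145650100, minus strand: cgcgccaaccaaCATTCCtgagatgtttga
Ankrd1, distal site, chr19:36120037-36120066, minus strand: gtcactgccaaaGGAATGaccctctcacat
Ankrd1, proximal site, chr19:36119950-36119979, minus strand: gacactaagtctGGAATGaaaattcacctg
Amotl2, chr9:102717727-102717756, plus strand: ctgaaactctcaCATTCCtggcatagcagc
Yap1, chr9:8004720-8004749, minus strand: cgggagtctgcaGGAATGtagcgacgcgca
Wwtr1, chr3:57576029-57576058, minus strand: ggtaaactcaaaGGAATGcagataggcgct

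These sites began 103 bases before the start for Cyr61, 210 and 123 bases for Ankrd1, 65 bases for Amotl2, 141 bases for Yap1 and 136 bases for Wwtr1. GENCODE vM21 places no exon over the sites of Cyr61, Yap1 and Wwtr1. It places an untranslated region of 1 Ankrd1 transcript over each Ankrd1 site and of 2 Amotl2 transcripts over the Amotl2 site. Of the Tead3 sites, which are not shown, both matches in its second window lie in annotated Tead3 exons. For Cyr61, whose whole window holds 0 annotated exons, the 250 bases before the start (chr3:145649986-145650235, minus strand) are given to show the motif in its setting, again in capitals.
Cyr61 promoter: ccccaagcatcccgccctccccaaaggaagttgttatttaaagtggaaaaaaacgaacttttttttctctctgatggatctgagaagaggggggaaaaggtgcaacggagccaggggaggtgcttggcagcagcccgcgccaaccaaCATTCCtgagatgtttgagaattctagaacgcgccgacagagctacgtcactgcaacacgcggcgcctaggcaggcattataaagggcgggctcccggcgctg

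A second motif, TGANTCA, is recognised by AP-1 factors and reads the same on both strands. It was in 0 of the 10 windows and in 6.75% of all windows. At that share, 0 matches in 10 windows would be ordinary for any genes, so no contrast with GGAATG is drawn. A match is a run of letters, not evidence of binding, and distal enhancers lie outside these windows. Target genes with a match stood both higher (Ankrd1) and lower (Cyr61 and Amotl2) in the null library, as the values below show.

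The comparison asked how these genes stood in tumour cells labelled Rnf8-/- against cells labelled as the same line with Rnf8 put back. The libraries held 57263401 (null) and 48607808 (complemented) counted reads. Rnf8 had 1224 reads (null) against 58868 (complemented), so the library labelled as complemented was the one with high Rnf8. In the complemented library Rnf8 stood at 596 RPKM, 56.7-fold above the null, against a median of 10.5 RPKM over its tested genes. No cells with an intact native Rnf8 gene were sequenced, so how this level compares with a native one is not shown. The null library still held Rnf8 RNA at 10.5 RPKM, near the median of 9.78 RPKM over its tested genes. Trp53 stood at 6.15 RPKM (1075 reads) in the null and 4.69 RPKM (696 reads) in the complemented library. The reads per gene therefore check neither deletion. Levels are in RPKM (the reads of a gene per kilobase of its model, scaled to all reads counted in that library), with exact Poisson 95% limits that cover counting error only. Differences are log2(RPKM + 1), null minus complemented, and calls needed a 2-fold difference on that scale, at or beyond 1 or -1. Of the 12609 genes whose mean RPKM reached 1, 14.8% were called higher in the null library and 15.9% lower, and the median difference was -0.17. Among the 8997 genes whose mean RPKM reached 5, as it did for all 10 members, the shares were 13.9% and 14.1%. TMM scaling leaves out genes with extreme ratios or levels before it sets the libraries to a common scale. With it, the shares at a mean RPKM of 1 moved from 14.8% and 15.9% to 17.3% and 12.3%. Of the calls 58.4% were then higher, against 48.1%, and the median rose by 0.20 to 0.03. Library totals without the 100 genes with most reads raised the median by 0.0054.

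Markers of cell type separated the libraries. All 12 epithelial markers stood higher in the null library, with a summed level of 6324 RPKM against 1.503. Of 11 fibroblast and mesenchymal markers 6 passed the filter, of which 5 stood lower in the null library, and the list's sum was 378 against 941 RPKM, mostly from Vim. Lum was at 0 reads in the null library. Of 8 myoepithelial markers 3 passed the filter and all 3 were higher (sum 488 against 0.798 RPKM), while Trp63, Acta2 and Myh11 were under 1 RPKM in both and Krt5 was at 0 reads in the complemented library. All 7 endothelial markers were under 1 RPKM in both libraries (sums 0.302 and 0.811), with Kdr and Tie1 at 0 reads in the null library. Of 7 leukocyte markers in the table only Cd68 passed the filter (sum 17.7 against 9.80 RPKM), and Ptprc had 0 reads against 1. Of 5 adipocyte markers only Fabp4 passed (0.163 against 92.4 RPKM, list sum 0.18 against 92.6). The other 4 were under 1 RPKM in both libraries, with Adipoq, Plin1 and Lep at 0 reads in the null library. All 12 epithelial markers were under 1 RPKM in the complemented library, although its label is a breast tumour line. With 1 library a form, Rnf8 status, cell state and a different clone or cell population cannot be told apart in any difference below. Nor can fewer cells of a kind and less RNA per cell.

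All 10 genes passed the filter on low values. In the null library 4 of the 10 stood at least 2-fold higher (Ctgf, Tead4, Ankrd1 and Tead2), 2 stood lower (Cyr61 and Amotl2) and 4 lay within 2-fold (Yap1, Wwtr1, Tead1 and Tead3). The members' median difference was 0.22. The 40% called higher and 20% called lower compare with 14.8% and 15.9% of all genes, over only 10 genes picked with results known. All 4 target genes were past 2-fold, but in opposite directions, and their median difference was -0.25.

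**Figure D1:**
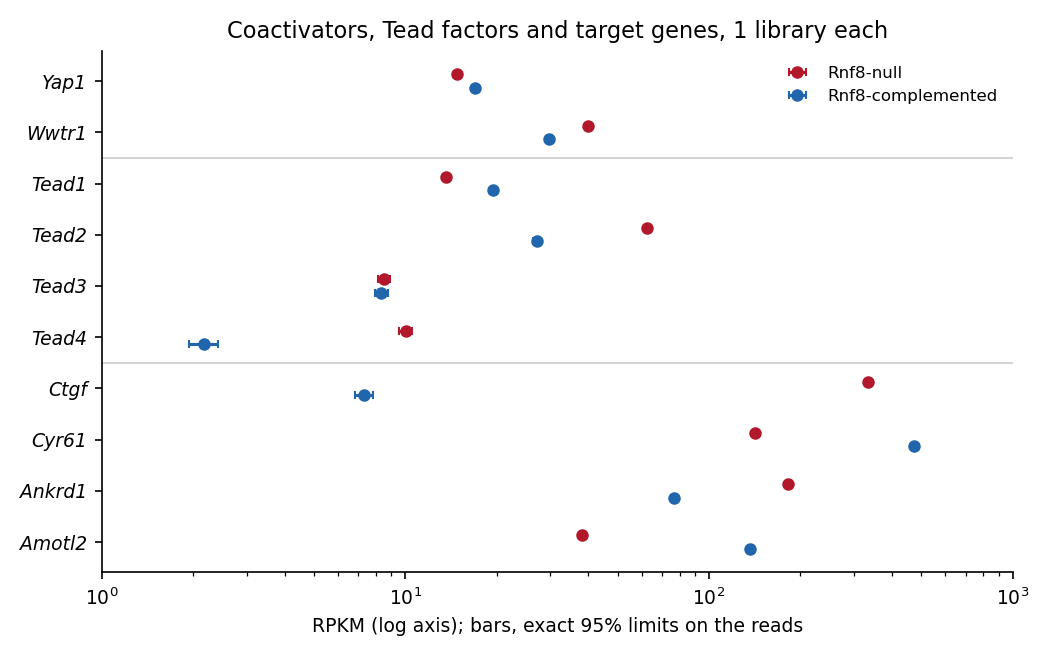
RPKM of the 10 genes on a log axis in the null (red) and complemented (blue) library, with exact 95% limits on the reads as bars, which are narrower than the points for most genes. Ctgf spans the widest gap, from 7.30 to 334 RPKM, while Tead3 stands at 8.52 and 8.34.

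The coactivator genes were present in both libraries and lay within 2-fold. Yap1 (chromosome 9, 7931999 to 8004596 on GRCm38), which encodes the coactivator Yap, stood at 14.8 RPKM in the null library (14.4 to 15.1, 7579 reads) and 17.0 in the complemented library (16.6 to 17.4, 7400 reads). The ratio was 0.869 (counting interval 0.842 to 0.898). That log2 difference of -0.19 was near the median of all genes, and it was 0.02 with TMM scaling, so its direction depended on the scaling. In rank, 50.8% of the genes tested had a larger difference than Yap1.

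Wwtr1 (chromosome 3, 57455649 to 57575910), which encodes Taz, stood at 39.8 RPKM (39.1 to 40.6, 11282 reads) against 29.6 (29.0 to 30.3, 7126 reads). The ratio was 1.34 (1.30 to 1.38), within 2-fold, and 24.9% of genes tested had a larger difference. The log2 difference of Wwtr1 was 0.41, and 0.63 with TMM scaling. Per length, Wwtr1 RNA exceeded Yap1 RNA in both libraries, 2.70-fold in the null and 1.75-fold in the complemented library. Yap1 made up 27.0% of the summed RPKM of the pair in the null and 36.4% in the complemented library, with counting standard errors of 0.293 and 0.384 percentage points. That 9.38 percentage point lower share does not depend on library scaling, but it has no replicate error to be set against.

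The Tead genes encode closely related DNA-binding factors that need a coactivator to activate transcription. Tead2 (chromosome 7, 45215753 to 45233644), known in the mouse for its expression in the early embryo, was the most abundant of the 4 in both libraries. It stood at 62.5 RPKM (61.5 to 63.5, 14199 reads) in the null and 27.1 (26.4 to 27.8, 5228 reads) in the complemented library, a ratio of 2.31 (2.23 to 2.38). Tead4 (chromosome 6, 128224288 to 128300823), which the mouse embryo needs to form the trophectoderm, stood at 10.01 RPKM (9.55 to 10.5, 1764 reads) against 2.17 (1.94 to 2.42, 325 reads). Its ratio of 4.61 (4.09 to 5.20) was the largest of the 4 Tead genes, and 8.83% of genes tested had a larger difference on the log2(RPKM + 1) scale.

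The other 2 Tead genes lay within 2-fold. Tead1 (chromosome 7, 112679318 to 112906807), which is needed for heart development in the mouse, stood at 13.6 RPKM (13.3 to 13.9, 7770 reads) in the null and 19.4 (19.0 to 19.8, 9379 reads) in the complemented library, a ratio of 0.703 (0.682 to 0.725). Tead3 (chromosome 17, 28331671 to 28350817) had nearly equal levels of 8.52 and 8.34 RPKM from 1996 and 1658 reads. Its ratio of 1.02 had a counting interval of 0.957 to 1.09, which includes equality.

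The summed RPKM of the 4 Tead genes was 94.6 in the null and 57.0 in the complemented library, a ratio of 1.66 and a log2 ratio of 0.73. Tead2 made up 66.0% of the sum in the null library and 47.6% in the other. Tead1 made up 14.4% against 34.0%, Tead4 10.6% against 3.81%, and Tead3 9.002% against 14.6%. Tead1 was second in both libraries, 4.59-fold below Tead2 in the null and 1.40-fold below it in the complemented library. Tead4 stood above Tead3 in the null library and below it in the complemented library.

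**Figure D2:**
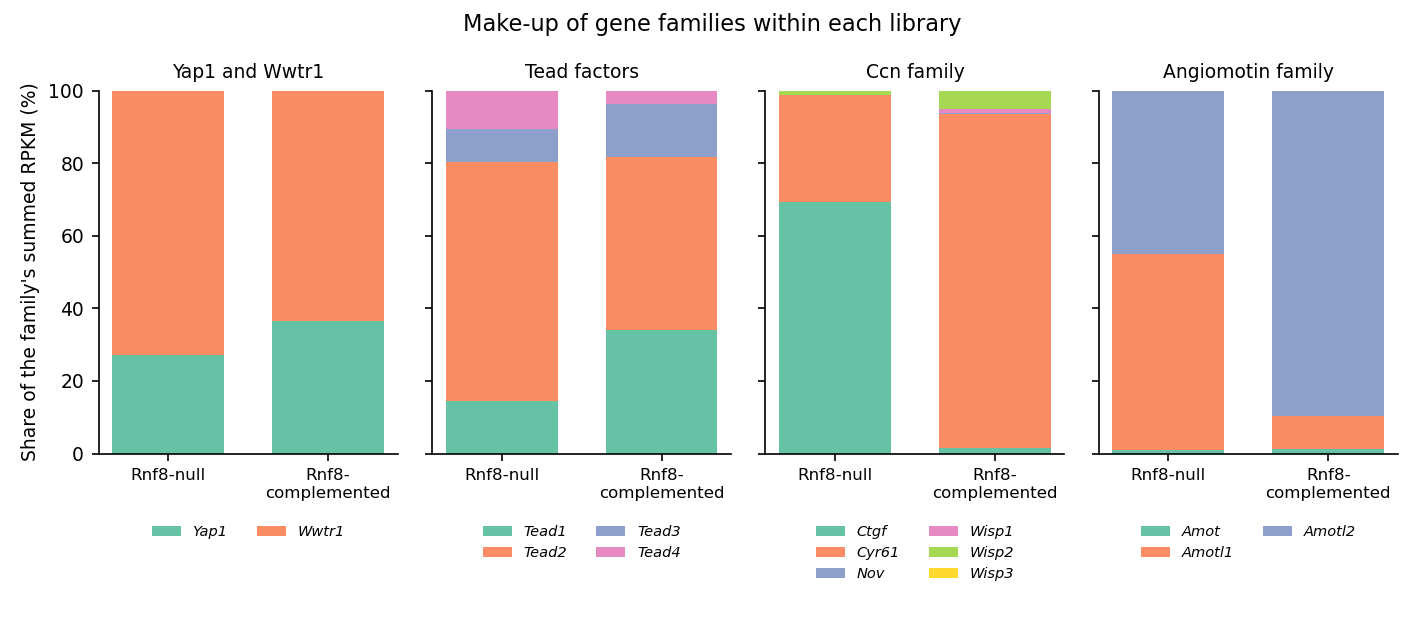
Share of each gene in the summed RPKM of its family (percent, stacked to 100) in the null and complemented library. Ctgf holds 69.3% of the Ccn family's sum in the null library and 1.42% in the other, where Cyr61 holds 92.2%.

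Ctgf showed the widest gap of the 10 genes. Ctgf (chromosome 10, 24595442 to 24598683, also named Ccn2) encodes a secreted matrix-associated protein of the Ccn family and is a standard readout of Yap and Taz. It stood at 334 RPKM (331 to 337, 45921 reads) in the null and 7.30 (6.82 to 7.80, 852 reads) in the complemented library. The ratio was 45.8 (42.8 to 49.0), which placed Ctgf at rank 120 of the 12609 genes by difference. In level, Ctgf lay above 97.9% of the tested genes in the null library and above 40.3% in the other.

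Cyr61 went the other way. Cyr61 (chromosome 3, 145646976 to 145649981, also named Ccn1) encodes a second secreted Ccn protein and is used beside Ctgf as a readout of Yap and Taz. It stood at 142 RPKM (139.9 to 144, 16500 reads) in the null and 474 (469.8 to 478, 46736 reads) in the complemented library, 3.34-fold lower in the null (3.28 to 3.40). Ctgf RNA was thus 2.35-fold above Cyr61 RNA per length in the null library, and 65.0-fold below it in the complemented library. This reversal of order is a comparison within each library and does not rest on the scaling between them.

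Ankrd1 (chromosome 19, 36111961 to 36120099), which encodes an ankyrin repeat protein of heart muscle and stressed cells, stood at 182 RPKM (179.7 to 185, 18424 reads) in the null library. In the complemented library it stood at 76.6 RPKM (74.7 to 78.4, 6568 reads), so it was 2.38-fold higher in the null (2.31 to 2.45). Amotl2 (chromosome 9, 102716672 to 102733418) encodes an angiomotin-like scaffold that binds Yap and restrains it, so it is both a target and an inhibitor. It stood at 38.3 RPKM (37.6 to 38.9, 12605 reads) against 136 (135 to 138, 38167 reads), 3.57-fold lower in the null library (3.496 to 3.64). Of all genes tested, 5.99% had a smaller difference than Amotl2 and 6.55% a smaller one than Cyr61.

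The target genes therefore formed 2 pairs, with Ctgf and Ankrd1 higher and Cyr61 and Amotl2 lower in the null library. The ratio of Cyr61 to Amotl2 RPKM was close in both libraries, at 3.71 in the null and 3.47 in the complemented library. Their ratios between the libraries, 3.34 and 3.57, were nevertheless apart by more than counting error. The summed RPKM of the 4 target genes was 696 in the null and 694 in the complemented library. Near-equal sums thus came from different genes. Ctgf made up 47.9% and Cyr61 20.4% of the sum in the null library, and 1.05% and 68.3% in the other. These shares do not depend on library scaling, but the closeness of the sums does.

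**Figure D3:**
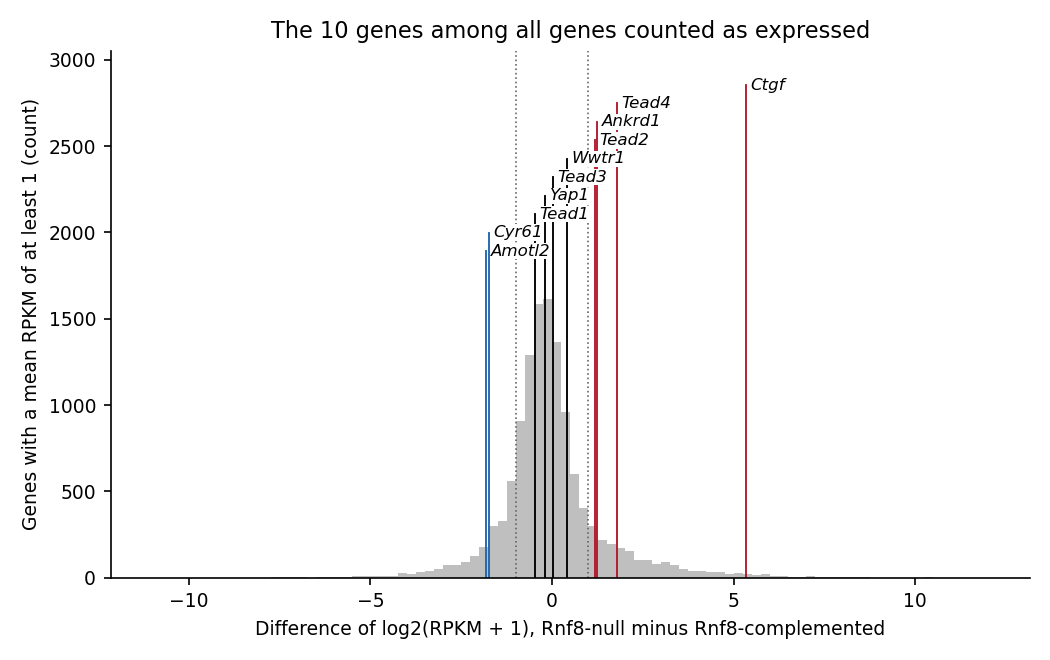
Histogram of the difference of log2(RPKM + 1), null minus complemented, over the 12609 genes whose mean RPKM reached 1, with the 10 genes as vertical lines (red higher, blue lower, black within 2-fold, dotted lines at -1 and 1). Ctgf lies far in the right tail at 5.33, and Yap1 at -0.19 lies near the middle of the histogram.

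In order of level within the null library, the target genes Ctgf, Ankrd1 and Cyr61 came first, followed by Tead2, Wwtr1, Amotl2, Yap1, Tead1, Tead4 and Tead3. In the complemented library the order was Cyr61, Amotl2, Ankrd1, Wwtr1, Tead2, Tead1, Yap1, Tead3, Ctgf and Tead4. The counting limits of neighbours in these orders did not overlap in either library, and how far cultures of the same cells would vary was not measured. Over the 2 log2(RPKM + 1) values, the genes nearest to Yap1 were Coa6, Prps2 and Ccdc34os, at Euclidean distances of 0.0172 to 0.0272. Those nearest to Ctgf were Clu (351 against 8.28 RPKM), Il1a (301 against 9.27) and Gm14023 (321 against 9.76), at distances of 0.177 to 0.379.

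The other Ccn genes encode related secreted proteins, and 2 of the 4 passed the filter, both lower in the null library, as were 15.9% of all genes. Wisp1 stood at 0.339 against 5.95 RPKM, 17.5-fold lower in the null (14.3 to 21.7). Wisp2, which lacks the last domain of the family, stood at 5.07 against 25.4 RPKM, 5.01-fold lower (4.55 to 5.53). Wisp3 had 56 reads against 80 and Nov 0 against 8, both below the filter. The summed RPKM of the 6 Ccn genes was 482 and 514, scaled to library totals. The sums on that scale were close, but Ctgf and Cyr61 also enter the sum of the target genes, so this is not a separate observation. In the null library Ctgf made up 69.3% and Cyr61 29.5% of the Ccn sum. In the complemented library Cyr61 made up 92.2%, Wisp2 4.94% and Ctgf 1.42%.

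Amotl2 has 2 relatives, Amot and Amotl1, whose proteins also bind Yap and which were named for that kinship after their values were seen. Amotl1 stood at 45.8 RPKM in the null library (26306 reads) and 13.7 in the complemented library (6684 reads), a ratio of 3.34 (3.25 to 3.43), opposite in direction to Amotl2. Amot was low, at 0.905 against 1.99 RPKM. Amotl1 made up 53.9% of the summed RPKM of the angiomotin family in the null library and 9.01% in the other, and Amotl2 45.04% against 89.7%.

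The kinase core of the pathway lay within 2-fold throughout. Of its 7 listed genes 0 were called in either direction, against 14.8% and 15.9% of all genes, and their median difference was 0.05. The largest differences were those of the kinase gene Lats2 (4.41 against 7.23 RPKM, difference -0.61), the kinase gene Stk4 (14.3 against 10.3, difference 0.45), the kinase-activating Mob1a (36.2 against 28.3, difference 0.35) and its relative Mob1b (3.65 against 4.003, difference -0.10). Lats2 is itself a known Yap target.

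Upstream regulators lay within 2-fold about as often as all genes. Of 31 listed genes 30 were in the table and 27 passed the filter; 6 stood higher in the null library, 3 lower and 18 within 2-fold, with a median of -0.26. Of all genes tested, 69.3% lay within 2-fold. The higher 6 were Crb3, Wwc1, Llgl2, Tnik, Amotl1 and Slmap, the last 3 named to complete the count. Crb3, an apical polarity protein of epithelia, had 5518 reads against 2, a ratio of 2342 (648 to 19343). Wwc1, which encodes Kibra, a scaffold that promotes Lats activation, stood at 54.0 against 0.646 RPKM (83.5-fold, 69.4 to 101). Llgl2, a polarity protein, stood at 11.9 against 2.33 RPKM.

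The lower 3 were Wtip, Ptpn14 and Map4k3. Wtip, an Ajuba-family LIM protein that in cultured cells binds Lats, had 0 reads in the null library and 3186 in the other (33.5 RPKM), at least 1251-fold lower against a floor of 3 reads. Ptpn14, a phosphatase that binds Yap and is also a Yap target, stood at 0.759 against 4.04 RPKM, 5.32-fold lower (4.89 to 5.80). Map4k3 was just past the 2-fold rule at -1.02. Nf2, which encodes the tumour suppressor Merlin at the head of the pathway, was chosen after its values were seen and stood at 27.2 against 33.1 RPKM. Taken with the kinase core, 6 of 34 genes past the filter stood higher and 3 lower, which is 17.6% and 8.82%, against 14.8% and 15.9% of all genes.

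The Vestigial-like genes encode cofactors that compete with Yap and Taz for Tead. Vgll4, which antagonises Yap, was level at 18.4 against 20.5 RPKM. Vgll3 had 0 reads in the null library and 1342 in the other (8.06 RPKM), at least 527-fold lower against a floor of 3 reads. Vgll1 had 0 reads in both libraries and Vgll2 0 and 1.

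**Figure D4:**
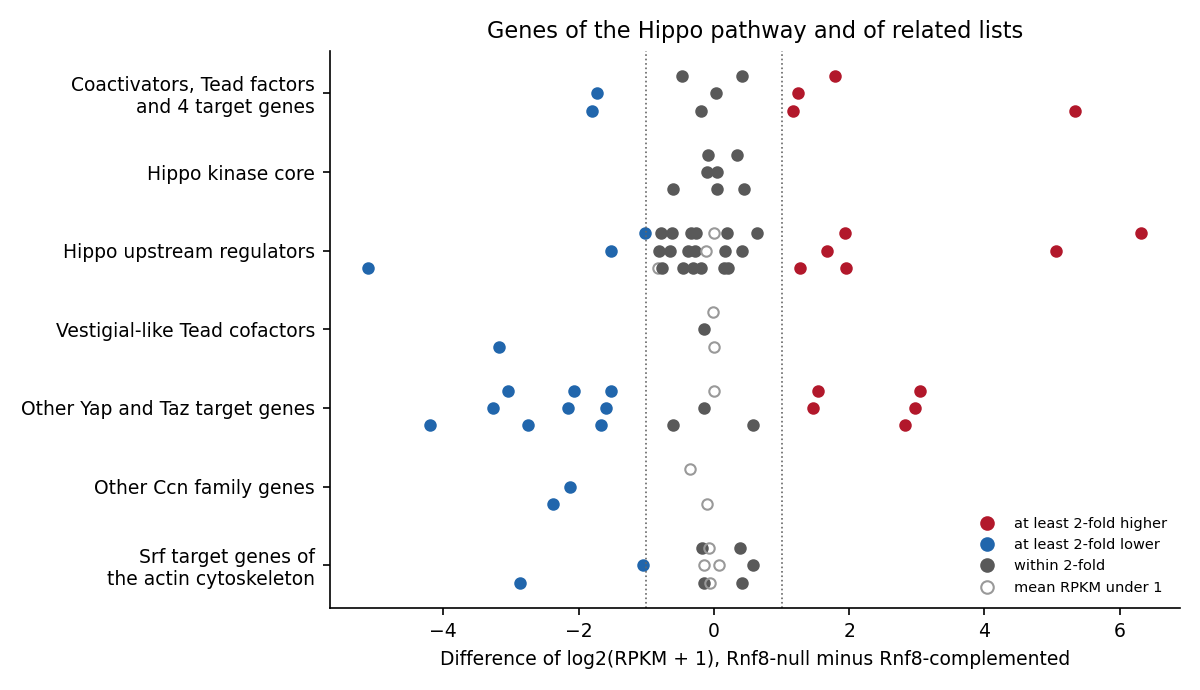
Difference of log2(RPKM + 1), null minus complemented, for each gene of the lists named on the vertical axis (1 point a gene, hollow where the mean RPKM is under 1, dotted lines at -1 and 1, points spread vertically only for legibility). The kinase core lies between -0.61 and 0.45, while other Yap and Taz targets spread from -4.19 to 3.04.

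Target genes outside the 4 members were also divided. Of 18 genes of a widely used Yap and Taz target signature, which shares Lats2 and Ptpn14 with the pathway lists, 17 passed the filter. Of these, 5 stood at least 2-fold higher in the null library, 9 lower and 3 within 2-fold, which is 29.4% and 52.9% against 14.8% and 15.9% of all genes. Their median difference was -1.52, and it was -1.06 over all 18.

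The higher 5 were Gadd45a, F3, Nt5e, Myof and Igfbp3. Gadd45a, a growth arrest and stress gene, stood at 54.9 against 5.80 RPKM (9.47-fold, 8.48 to 10.6). F3, which encodes tissue factor, stood at 34.3 against 3.48 RPKM (9.86-fold, 8.79 to 11.1), and Nt5e, the ecto-enzyme CD73, at 52.3 against 6.52 (8.02-fold, 7.62 to 8.45).

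The lower 9 included Foxf2, Nuak2 and Tgfb2. Foxf2, a forkhead factor of mesenchymal cells, had 2 reads against 2014, which was 1186-fold lower in the null library (328 to 9802). Nuak2, a kinase, stood at 0.29 against 11.4 RPKM, 39.5-fold lower in the null (29.96 to 53.1). Tgfb2, a ligand of the TGF-beta pathway, stood at 0.566 against 11.9 RPKM, 21.1-fold lower (17.9 to 24.9). Axl, a receptor tyrosine kinase often set beside Ctgf and Cyr61 as a Yap readout, was chosen after its values were seen and stood at 43.8 against 141 RPKM.

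Ctgf, Cyr61 and Ankrd1 are also targets of the actin-regulated factor Srf in other cells, so Srf and 10 of its cytoskeletal targets were described. Of these 11 genes 7 passed the filter, and 0 stood higher in the null library, 2 lower and 5 within 2-fold, against 14.8% higher and 15.9% lower among all genes. The lower 2 were Tpm2, a tropomyosin (0.626 against 10.9 RPKM), and Srf itself (11.8 against 25.6 RPKM, difference -1.05). Tpm1 stood at 176 against 132 RPKM and Tagln at 2.38 against 1.27.

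The counting had no stated strand setting. In GENCODE vM21 an annotated gene on the opposite strand overlaps Yap1, Wwtr1, Tead1, Tead2, Tead4 and Ctgf, and none overlaps Tead3, Cyr61, Ankrd1 or Amotl2. Of the overlapping genes only Cd37, beside Tead2, had its own row, with 59 reads in the null and 79 in the complemented library.

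**Figure D5:**
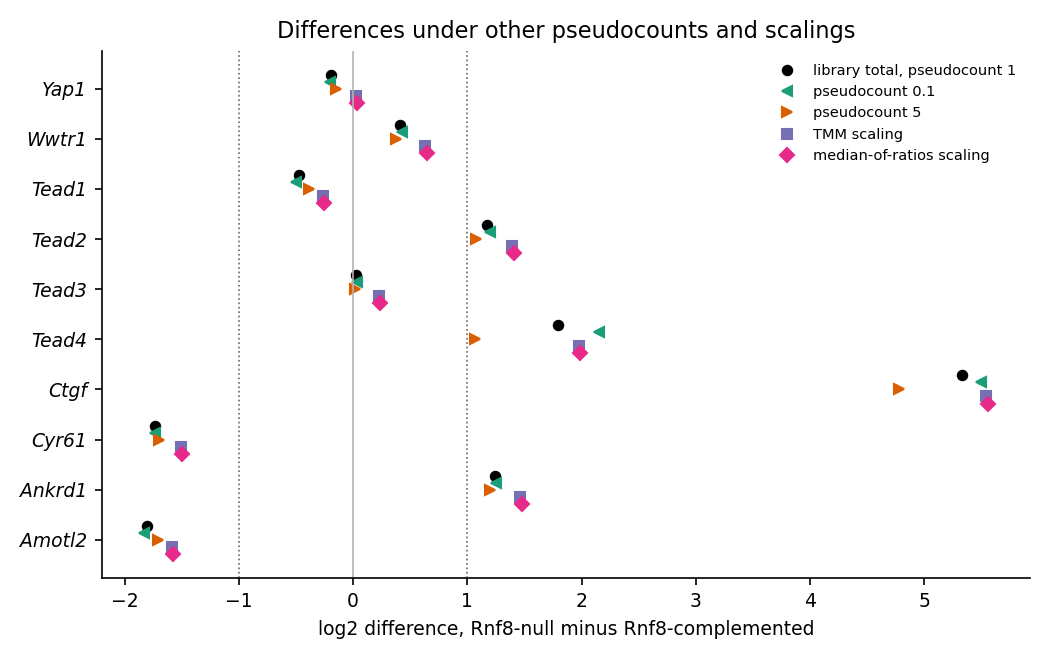
Log2 difference of the 10 genes, null minus complemented, with the library total and a pseudocount of 1 RPKM (black), with pseudocounts of 0.1 and 5 RPKM, and with TMM and median-of-ratios scaling (dotted lines at -1 and 1). Yap1 moves from -0.19 to 0.02 with TMM scaling and 0.03 with median-of-ratios scaling, while Ctgf stays between 4.78 and 5.56.

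The calls of the 10 genes held under every other pseudocount, filter and scaling tried. With a 3-fold rule, under which 10.2% of all genes stood higher and 8.03% lower, Tead2 and Ankrd1 fell within the limit, and Ctgf, Tead4, Cyr61 and Amotl2 stayed called. The plot of differences by setting shows the spread of each gene.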

How the data were processed

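RNA from 2 forms of 1 mouse mammary tumour cell line was sequenced, 1 library each; total RNA was extracted with a column kit and libraries were made by Illumina TruSeq methods, per the labels' protocols. Build mm10 (GRCm38) and the tools STAR (2.4.0f1), bedtools, SAMtools (0.1.18) and DESeq2 are listed, without roles, per the submitters' processing notes. The sources used here do not give the counter, annotation or strand setting.

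The authors' deposited table holds read counts by gene symbol, as unnormalized whole numbers, and RPKM values computed by the authors. The gene length implied by each count, RPKM and column total was a whole number for all 20176 genes with a read (largest deviation 1.35e-08 bases). Columns were matched by sample title.

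Differences were computed as log2(RPKM + 1), null minus complemented, which understates differences of low genes, so ratios of RPKM are given beside them. Genes whose mean RPKM reached 1 were tested against the 2-fold rule. Ratios carry exact conditional binomial (Clopper-Pearson) 95% intervals and levels exact Poisson 95% limits, for counting error only; PCR copies were not told apart, so these can be too narrow. At these depths 3 reads on 2000 bases corresponded to 0.0262 and 0.0309 RPKM. Shares of a family carry standard errors propagated from the counts. The difference and call steps were tested on simulated data.

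The members and the 12 gene lists were chosen with earlier results of these data known. Named genes are the members, up to 4 per list with the largest absolute difference, and all Vestigial-like and Ccn genes. Also named are those completing a count of 5 or fewer, Rnf8 and Trp53, and the 3 genes nearest to Yap1 and Ctgf. Outside that rule, Tnik and Slmap complete a count of 6, and Nf2, Axl, Amot, Amotl1, Cd37, Nr2f2, Cd36 and all markers of cell type named were chosen after their values were seen. Positions come from GENCODE vM21 and promoters from RefSeq (GRCm38.p6); Ctgf and Cyr61 were matched through their newer names. Alternatives were pseudocounts of 0.1 and 5 RPKM, no filter or a mean RPKM of at least 5, TMM scaling (edgeR 4.0.16), median-of-ratios size factors (DESeq2 1.42.0), totals without the 100 genes with most reads, and a 3-fold rule, in R 4.3.3 and Python 3.11.15.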

Additional observations from a re-analysis of the deposited data

How the results depend on the processing

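With 1 library per form there is no replicate error, so leaving out a library and any test between forms were not possible. No paired analysis was possible because each form had 1 library. With a 3-fold rule the members called higher fell from 4 to 2, the other Yap and Taz targets called higher from 5 to 3, and the pathway regulators called lower from 3 to 1. With a pseudocount of 5 RPKM the pathway regulators called lower were also 1. The summed Tead log2 ratio of 0.73 was 0.96 with TMM scaling and 0.97 with median-of-ratios size factors, and the median target gene difference of -0.25 was -0.021 and -0.011, as those scalings raised the median of all genes by 0.20 and 0.21. The median-of-ratios size factors were 1 for both libraries, so that alternative compares the counts without any scaling to depth. Of 61 such values under the alternatives, the 53 others stayed within 1.5 times (counts) or within counting error (medians, sums and shares). Among differences of single members, 29 of 50 values moved by more than the counting interval, 0 called values changed sign, and Yap1, which was not called, changed sign with both of those scalings. Depth limits only the lowest genes, such as Vgll2 and Nov.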

Other observations

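Genes without a read in 1 library and many in the other were counted over the whole table, after the values of Wtip and Vgll3 were seen. In the Rnf8-null library 31 genes had 0 reads while the Rnf8-complemented library had at least 1000, and 56 genes showed the opposite. Wtip ranked 5 among the genes at 0 in the Rnf8-null library by reads in the other, and Vgll3 ranked 19, so both belong to a wider group of genes with reads in 1 form alone. The group also held Nr2f2, which encodes a nuclear receptor, with 3291 reads, and Cd36, which encodes a fatty acid transporter, with 2117 reads in the Rnf8-complemented library.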
